A study of Mus musculus with 12 samples.

Results

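The IL-17 and IL-23 axis was followed in mouse back skin through 10 genes out of the 56923 in the count table. They were the ligands *Il17a*, *Il17f* and *Il17c*, the receptor subunits *Il17ra*, *Il17rc* and *Il17re*, the IL-23 subunits *Il23a* and *Il12b*, and the intracellular regulators *Nfkbiz* and *Zc3h12a*. The 10 genes were taken by name, and the list was chosen from earlier results of these same libraries, in which *Il17c* had been named for its low level in knockout-labelled skin after imiquimod. That difference is therefore given below as values with no test. For the other genes, the p-values place each gene among all tested genes and are no independent evidence.

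Bulk RNA-seq had been made from the skin of 12 mice in 4 groups of 3: WT control, WT IMQ, LCN2 KO-Control and LCN2 KO-IMQ. Imiquimod (IMQ), a Toll-like receptor agonist that raises psoriasis-like inflammation, was applied to the shaved back as a 5% cream for 6 days, and the controls received a vehicle instead. The mice were females of 8 to 10 weeks on the C57BL/6 background, and the knockout-labelled mice are described as *Lcn2*-/- animals from a commercial line, with WT littermates. The labels give LCN2 knockdown as their genotype and record the treatment of control mice as none. With whole skin as the sample, a smaller number of cells of one type and less RNA in each such cell cannot be told apart.

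*Lcn2* itself went against the genotype label among the controls, and after IMQ it was lower in the knockout-labelled mice but still present. In CPM, the counts scaled to a common library total, it was at 9.22 to 15.9 in the knockout-labelled controls, above the WT controls at 4.57 to 8.64 CPM, and at 29.9 to 49.8 CPM in the knockout-labelled IMQ mice, below the WT IMQ mice at 61.2 to 183 CPM. Neither difference had an adjusted p under 0.05 (0.794 among controls and 0.0525 among IMQ mice, edgeR quasi-likelihood test). The deposited counts do not show which exons the reads came from, and the groups are called KO-labelled throughout. The labels name skin as the tissue while the extraction text speaks of retinas. In every library the 12 keratinocyte markers summed to between 6219 and 46330 CPM, and the 10 retina markers to between 0.471 and 3.03 CPM, with 2 of the 10 at 0 in all libraries.

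Cytokines of the IL-17 family act on epithelial cells through paired receptor chains. IL-17A and IL-17F bind a receptor of IL-17RA with IL-17RC, whereas the epithelial cytokine IL-17C binds IL-17RA with IL-17RE. IL-23, a dimer of the p19 chain from *Il23a* and the p40 chain from *Il12b*, is made by myeloid cells and sustains the T cells that secrete IL-17A, IL-17F and IL-22. In keratinocytes the signal induces IκBζ, the product of *Nfkbiz*, which drives many IL-17 target genes, and Regnase-1, the RNase encoded by *Zc3h12a*, which degrades inflammatory mRNAs and dampens the response. This axis is the target of several antibody treatments of psoriasis.

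The 3 ligand genes are shown by the sequence at their transcription starts, because they encode the cytokines of the axis. RefSeq promoters of 300 bases (GRCm38.p6, from 250 bases before the start) were matched for 7 of the 10 genes, and *Il17ra*, *Il23a* and *Nfkbiz* had no entry. Capitals mark matches to 4 motifs searched on both strands: the AP-1 motif TGANTCA, the ROR half-site AGGTCA, the TATA box TATAAA and the NF-κB motif. *Il17a* (chr1:20730655-20730954, plus strand) and *Il17f* (chr1:20784221-20784520, minus strand) are neighbours on chromosome 1, and *Il17c* (chr8:122421770-122422069, plus strand) lies elsewhere.
Il17a: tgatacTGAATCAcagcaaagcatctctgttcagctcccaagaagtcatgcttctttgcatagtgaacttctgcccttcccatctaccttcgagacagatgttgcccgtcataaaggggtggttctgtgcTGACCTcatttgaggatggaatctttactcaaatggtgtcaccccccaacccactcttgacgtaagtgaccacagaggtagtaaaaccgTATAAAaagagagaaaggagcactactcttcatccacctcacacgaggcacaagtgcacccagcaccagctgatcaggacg
Il17f: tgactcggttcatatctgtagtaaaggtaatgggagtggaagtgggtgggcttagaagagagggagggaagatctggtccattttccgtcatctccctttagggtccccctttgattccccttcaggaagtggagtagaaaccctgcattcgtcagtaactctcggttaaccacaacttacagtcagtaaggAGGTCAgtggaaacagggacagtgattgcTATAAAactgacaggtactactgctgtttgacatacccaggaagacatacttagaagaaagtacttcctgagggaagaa
Il17c: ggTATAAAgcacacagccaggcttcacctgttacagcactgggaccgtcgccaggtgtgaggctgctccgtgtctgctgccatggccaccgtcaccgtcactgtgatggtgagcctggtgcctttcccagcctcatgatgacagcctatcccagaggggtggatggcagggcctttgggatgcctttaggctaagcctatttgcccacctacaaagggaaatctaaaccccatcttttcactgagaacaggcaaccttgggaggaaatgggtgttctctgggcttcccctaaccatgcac
The *Il17a* promoter held 1 AP-1 match, 1 ROR half-site on the opposite strand and 1 TATA box, which began 31 bases before the start. The *Il17f* promoter held 1 ROR half-site and 1 TATA box, which began 29 bases before the start. The single match of *Il17c* was a TATA box motif that began 248 bases before the start, and none of the other 4 matched promoters, of *Il17rc*, *Il17re*, *Il12b* and *Zc3h12a*, held a match. Among 32851 promoters of the same length, 7.81% held the AP-1 motif, 16.3% the ROR half-site, 13.6% the TATA box and 8.46% the NF-κB motif. These matches describe letters and not bound sites.

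The libraries held between 16448226 and 28592110 counts, so that 3 counts, taken as the floor, corresponded to between 0.0985 and 0.202 CPM. In all, 18529 genes passed the filter on low counts, and 9 of the 10 axis genes were among them. *Il12b* did not pass. *Il17c* reached the filter level only in the 3 WT IMQ libraries, *Il17a* in 5 libraries, all treated with IMQ, *Il23a* in 8 and *Il17f* in 9, including none of the WT controls. These 4 genes were tested only because they were high in some groups, so that they had to differ, and their tests carry less weight than those of the other 5, which passed in all 12 libraries. Where a group held few reads, ratios of pooled reads are given with a 95% interval that covers counting error only.

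**Figure D1:**
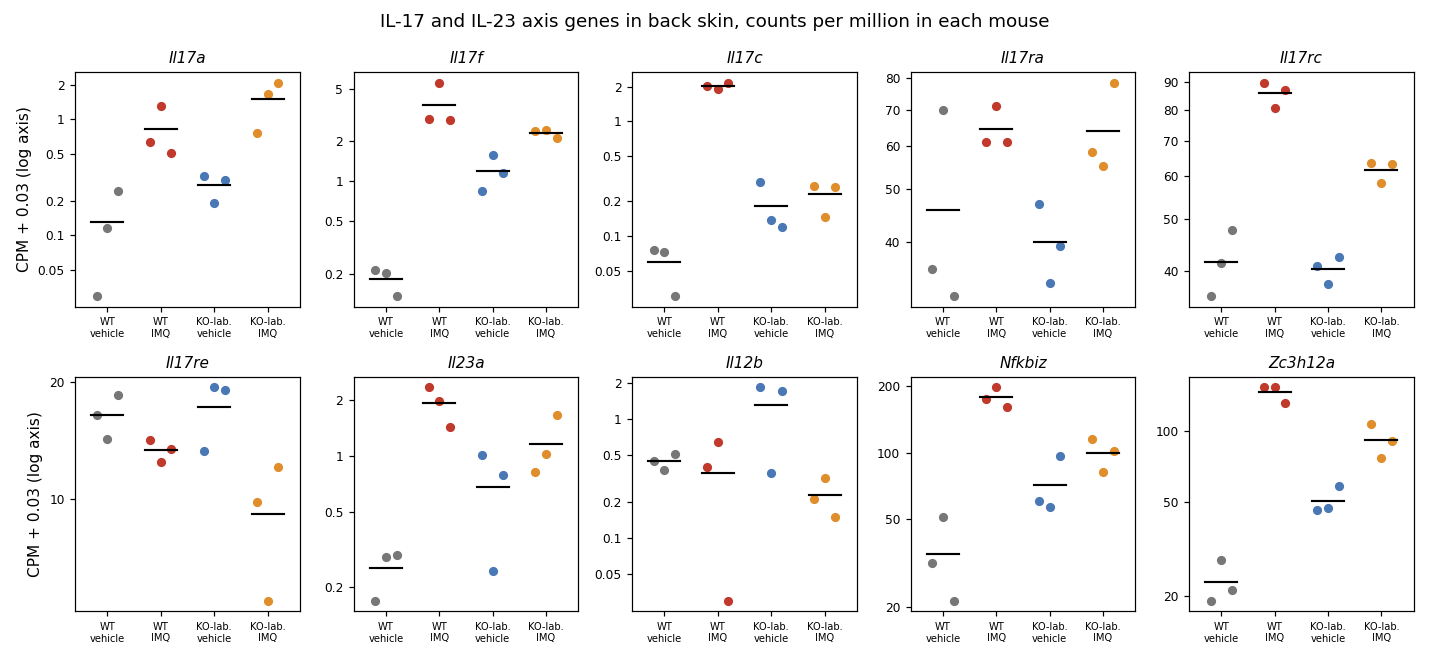
CPM of the 10 IL-17 and IL-23 axis genes in each mouse, plotted with 0.03 CPM added on log axes whose range differs between panels. Points are single mice (n = 3 per group) and lines are group means. *Il17c* sits at 1.88 to 2.13 CPM in the WT IMQ mice and below 0.3 CPM in every other mouse. *Il17a* has its highest mean in the KO-labelled IMQ mice, which overlap with the WT IMQ mice.

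*Il17a* (ENSMUSG00000025929, chromosome 1 from 20730905 to 20734496, GRCm38), which encodes the leading cytokine of Th17 and γδ T cells, rose after IMQ under both genotype labels. It was counted 0, 2 and 4 times in the WT controls and 10, 19 and 10 times in the WT IMQ mice. The KO-labelled controls held 9, 3 and 6 counts and the KO-labelled IMQ mice 12, 28 and 34. After IMQ no mouse of either label overlapped with its own controls in CPM, as for 20.1% of all tested genes in WT and 23.1% in KO-labelled mice with IMQ higher. The fitted log2 fold change of *Il17a* for IMQ was 2.94 in WT mice (SE 0.80, edgeR quasi-likelihood test, adjusted p = 0.0170) and 2.55 in KO-labelled mice (SE 0.69, adjusted p = 0.0191, same edgeR test). Because *Il17a* reached the filter level only in IMQ libraries, a rise was built into these tests, and they support nothing. Between the IMQ groups the level was 0.789 ± 0.427 CPM (SD, n = 3) in WT and 1.47 ± 0.669 CPM (SD, n = 3) in KO-labelled mice. The groups overlapped, and the log2 difference of 0.91 (SE 0.64, adjusted p = 0.373, same edgeR test) had a range of 2 SE from -0.36 to 2.18. The WT call was lost without WT control mouse 1, WT control mouse 2 or WT IMQ mouse 2, with adjusted p between 0.0502 and 0.0537. The KO-labelled call was lost without control mouse 2 or 3 or IMQ mouse 2 or 3, with adjusted p between 0.0569 and 0.0762.

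*Il17f* (ENSMUSG00000041872, chromosome 1 from 20777146 to 20790617), the neighbouring gene for a cytokine that shares the receptor of IL-17A, showed a different distribution across the groups. It had 4, 4 and 2 counts in the WT controls and 48, 82 and 59 in the WT IMQ mice. In the KO-labelled controls it already had 25, 29 and 25 counts, and IMQ brought it to 39, 41 and 35. In CPM the 4 groups did not overlap with one another and followed the order WT control, KO-labelled control, KO-labelled IMQ and WT IMQ. The IMQ response of WT mice was a log2 fold change of 4.53 (SE 0.44, edgeR quasi-likelihood test, adjusted p = 2.86e-05). That of KO-labelled mice, 0.99, was not called (SE 0.36, adjusted p = 0.0628, same edgeR test). The KO-labelled response was lower than the WT response by -3.54 on the log2 scale (SE 0.57, adjusted p = 0.0223, same edgeR test). Of 12 fits that left out 1 mouse each, 5 kept that call, and it was lost without WT control mouse 1, WT IMQ mouse 1 or 3, KO-labelled control mouse 2 or 3, or KO-labelled IMQ mouse 1 or 2, with adjusted p up to 0.0692.

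Most of that difference in *Il17f* lay between the control groups. Pooled over the mice, 79 *Il17f* reads in KO-labelled controls stood against 10 in WT controls, a ratio of 7.03 (95% counting interval 3.63 to 15.2). The fitted difference of 2.83 on the log2 scale (SE 0.44) had an unadjusted p of 3.82e-05 and did not pass the adjustment over all genes (edgeR quasi-likelihood test, adjusted p = 0.0786). DESeq2 called it (adjusted p = 0.000799), and so did edgeR without KO-labelled control mouse 1 (adjusted p = 0.0489). After IMQ the level was 3.76 ± 1.52 CPM (SD, n = 3) in WT and 2.29 ± 0.168 CPM (SD, n = 3) in KO-labelled mice, a log2 difference of -0.71 that was not called (SE 0.35, adjusted p = 0.216, edgeR's quasi-likelihood test).

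*Il17c* (ENSMUSG00000046108, chromosome 8 from 122422020 to 122423639), the ligand made by epithelial cells themselves, was close to the floor in every group but one. It had 1, 1 and 0 counts in the WT controls and 33, 28 and 44 in the WT IMQ mice. The KO-labelled controls had 8, 2 and 2 counts and the KO-labelled IMQ mice 4, 2 and 4. The WT IMQ mice thus stood apart from all others, while the KO-labelled groups overlapped with each other. In pooled reads, 105 against 2 gave a ratio of 64.3 for IMQ in WT skin (95% counting interval 17.4 to 538), with a fitted log2 fold change of 5.75 (SE 0.67) given with no test, because the gene passed the filter only through the WT IMQ mice and their values were among those that had singled it out. In KO-labelled skin 10 against 12 reads gave a ratio of 1.19 (95% counting interval 0.460 to 3.00), and the log2 fold change of 0.31 was not called (SE 0.62, adjusted p = 0.794, same edgeR test). After IMQ the WT level was 10.1 times the KO-labelled level in pooled reads (95% counting interval 5.29 to 21.7). Among controls the KO-labelled mice had 12 reads against 2, a ratio of 5.34 (95% counting interval 1.19 to 49.1), and the edgeR test did not call it (adjusted p = 0.669). The gene lies within the span of *Gm20388* but shares no exon with it in the GRCm38 annotation.

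Scaled to exon length, the mean levels of the ligands ranked differently in the IMQ groups, in part through the low *Il17c* for which that gene had been named. In WT IMQ skin the level per kilobase was 2.79 ± 0.173 CPM for *Il17c*, 1.86 ± 0.751 CPM for *Il17f* and 0.674 ± 0.365 CPM for *Il17a* (SD, n = 3 each). *Il17f* (2.73 CPM) was above *Il17c* (2.61 CPM) in WT IMQ mouse 2, so that these neighbours in the order overlapped. In KO-labelled IMQ skin it was 1.25 ± 0.571 CPM for *Il17a*, 1.13 ± 0.0830 CPM for *Il17f* and 0.279 ± 0.101 CPM for *Il17c* (SD, n = 3 each). *Il17a* and *Il17f* there differed by less than the SD of *Il17a*, and *Il17c* lay below both by more than its own SD.

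The 3 receptor chains passed the filter on low counts in all 12 libraries. *Il17ra* (ENSMUSG00000002897, chromosome 6 from 120463247 to 120487559), the chain common to the receptors of IL-17A, IL-17F and IL-17C, had 35.6, 69.9 and 31.7 CPM in the WT controls and 61.1, 71.0 and 61.1 CPM in the WT IMQ mice. Under the knockout label it had 46.8, 33.5 and 39.2 CPM in controls and, after IMQ, 58.4, 55.2 and 78.5 CPM. WT control mouse 2 reached the IMQ level, so that the WT groups overlapped, while the KO-labelled groups did not. The log2 fold changes for IMQ, 0.49 in WT (SE 0.26, adjusted p = 0.187) and 0.68 in KO-labelled mice (SE 0.26, adjusted p = 0.0797), were not called by edgeR's quasi-likelihood test. Without WT control mouse 2 the WT value was 0.93 and was called (adjusted p = 0.00401, same edgeR test). Between the IMQ groups the log2 difference was -0.01 (SE 0.26), with a range of 2 SE from -0.54 to 0.52.

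*Il17rc* (ENSMUSG00000030281, chromosome 6 from 113471427 to 113483140), the partner chain for IL-17A and IL-17F, rose after IMQ under both labels. It had 35.8, 41.2 and 47.5 CPM in the WT controls and 89.8, 80.7 and 87.2 CPM in the WT IMQ mice. Among KO-labelled mice, controls had 40.8, 37.7 and 42.3 CPM and IMQ mice 63.6, 58.3 and 63.4 CPM. The control groups overlapped and the IMQ groups did not overlap with them or with each other. The rise was a log2 fold change of 1.05 in WT mice (SE 0.11, edgeR quasi-likelihood test, adjusted p = 6.43e-05) and of 0.62 in KO-labelled mice (SE 0.11, adjusted p = 0.00296, same edgeR test). After IMQ it was lower in KO-labelled mice by -0.48 on the log2 scale (SE 0.11, adjusted p = 0.0414, same edgeR test). That call was kept in 1 of 6 fits with a mouse left out. It was lost without WT IMQ mouse 1 or 3 or any 1 of the KO-labelled IMQ mice, with adjusted p between 0.0896 and 0.183. The difference between the 2 responses, -0.43, was not called (SE 0.16, adjusted p = 0.134, same edgeR test).

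*Il17re* (ENSMUSG00000043088, chromosome 6 from 113458484 to 113470758), the partner chain for IL-17C and the upstream neighbour of *Il17rc*, went the other way. It had 16.5, 14.3 and 18.5 CPM in the WT controls and 14.2, 12.4 and 13.4 CPM in the WT IMQ mice. The KO-labelled controls had 13.3, 19.4 and 19.1 CPM and the KO-labelled IMQ mice 9.77, 5.44 and 12.1 CPM. Neither IMQ group overlapped with its controls, as for 20.6% of all tested genes in WT and 22.8% in KO-labelled mice with IMQ lower. In WT mice the gap lay only between 14.3 and 14.2 CPM. The log2 fold change was -0.29 in WT mice and not called (SE 0.25, edgeR quasi-likelihood test, adjusted p = 0.415), and was -0.93 in KO-labelled mice (SE 0.26, adjusted p = 0.0217, same edgeR test). The KO-labelled call was lost without control mouse 2 or 3 or IMQ mouse 2, with adjusted p between 0.0553 and 0.0707, and with the KO-labelled mice alone in the fit (0.0506). Per kilobase of exon, *Il17rc* was the most abundant chain in all 4 groups, with 32.2 ± 1.77 CPM against 7.44 ± 0.657 CPM for *Il17ra* and 2.28 ± 0.154 CPM for *Il17re* in WT IMQ skin (SD, n = 3 each).

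Of the IL-23 subunits, *Il23a* and *Il12b* did not move together. *Il23a* (ENSMUSG00000025383, chromosome 10 from 128296139 to 128298752), the p19 chain, had 3, 6 and 5 counts in the WT controls and 38, 29 and 29 in the WT IMQ mice. The KO-labelled controls had 30, 4 and 17 counts and the KO-labelled IMQ mice 13, 17 and 27. The WT groups were apart, whereas the KO-labelled groups overlapped because control mice 1 and 3 were at or near the IMQ level. *Il23a* rose in WT mice by a log2 fold change of 3.06 (SE 0.58, edgeR quasi-likelihood test, adjusted p = 0.00245). In KO-labelled mice the value was 0.76 and was not called (SE 0.52, adjusted p = 0.301, same edgeR test). The difference between these responses was -2.30 (SE 0.77, adjusted p = 0.110, same edgeR test), and it was not called.

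*Il12b* (ENSMUSG00000004296, chromosome 11 from 44400063 to 44414033), the p40 chain that IL-23 shares with IL-12, stayed below the filter. It had 9, 8 and 9 counts in the WT controls and 6, 9 and 0 in the WT IMQ mice. The KO-labelled controls had 55, 6 and 38 counts and the KO-labelled IMQ mice 3, 5 and 2. *Il12b* was therefore highest in KO-labelled controls 1 and 3, which were also the controls with the most *Il23a*, and control mouse 2 of that group was at the level of the other groups. Pooled reads gave 99 against 26 for KO-labelled against WT controls, a ratio of 3.39 (95% counting interval 2.18 to 5.44), which does not cover the spread between these mice. In KO-labelled skin the control level was 6.93 times the IMQ level (95% counting interval 3.62 to 14.9), and the groups did not overlap. With no filter on low counts, that fall was a log2 fold change of -2.68 (SE 0.85, edgeR quasi-likelihood test, adjusted p = 0.0448). It rested mostly on control mice 1 and 3, since control mouse 2 had 6 counts. The other unfiltered comparisons were not called by the same edgeR test. Adjusted p was 0.928 between the controls (log2 difference 1.64, SE 0.77), 0.820 for IMQ in WT mice, 0.813 between the IMQ groups and 0.420 for the difference of responses.

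The sum of 10 dendritic and Langerhans cell markers, which mark cells able to make IL-23, was 2584 and 1937 CPM in KO-labelled controls 1 and 3 and 1149 CPM in control 2. It ranged from 2062 to 3527 CPM in WT controls, from 265 to 733 CPM in WT IMQ mice and from 1006 to 1472 CPM in KO-labelled IMQ mice. *Cd74* and *H2-Ab1*, class II pathway genes that other cells also express, made up between 90.2% and 95.9% of each sum. The other 8 markers summed to 168, 82.5 and 124 CPM in KO-labelled controls 1, 2 and 3, and to between 23.9 and 39.0 CPM in WT IMQ mice. WT IMQ mice thus had the least of these markers and, on average, the most *Il23a*. None of the 10 markers was at 0 in all libraries. The part of cell composition in either IL-23 subunit was not tested.

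*Nfkbiz* and *Zc3h12a* had 401 or more counts in every library. *Nfkbiz* (ENSMUSG00000035356, chromosome 16 from 55811375 to 55838899) had 31.7, 51.0 and 21.4 CPM in the WT controls and 176, 198 and 162 CPM in the WT IMQ mice. In KO-labelled mice it had 60.2, 56.9 and 97.0 CPM with vehicle and, after IMQ, 115, 82.1 and 102 CPM. Every KO-labelled control lay above every WT control, and the KO-labelled groups overlapped at control mouse 3. IMQ raised *Nfkbiz* by a log2 fold change of 2.36 in WT mice (SE 0.30, edgeR quasi-likelihood test, adjusted p = 0.000213), and the value of 0.49 in KO-labelled mice was not called (SE 0.29, adjusted p = 0.234, same edgeR test). The difference between the responses was -1.88 (SE 0.41, adjusted p = 0.0432, same edgeR test). It was called in 4 of 12 fits with a mouse left out. The call was lost without WT control mouse 1, WT IMQ mouse 1 or 3, KO-labelled control mouse 2 or 3 or any KO-labelled IMQ mouse (adjusted p between 0.0657 and 0.133).

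*Zc3h12a* (ENSMUSG00000042677, chromosome 4 from 125118423 to 125127840) had 19.2, 28.5 and 21.3 CPM in the WT controls and 152, 152 and 131 CPM in the WT IMQ mice. The KO-labelled controls had 46.2, 47.1 and 58.6 CPM and the KO-labelled IMQ mice 106, 76.7 and 90.5 CPM. As for *Il17f*, the 4 groups did not overlap and came in the same order. The IMQ response was a log2 fold change of 2.66 in WT mice (SE 0.18, edgeR quasi-likelihood test, adjusted p = 2.18e-06) and of 0.85 in KO-labelled mice (SE 0.17, adjusted p = 0.00411, same edgeR test). The second was lower than the first by -1.81 (SE 0.24, adjusted p = 0.0170, same edgeR test). That call held in 9 of 12 fits with a mouse left out, and was lost without WT IMQ mouse 1 or 3 or KO-labelled IMQ mouse 2 (adjusted p between 0.0529 and 0.0662).

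Among the controls *Zc3h12a* was higher in KO-labelled mice by a log2 fold change of 1.14 (SE 0.17) with an unadjusted p of 2.36e-05, which did not pass the adjustment (edgeR quasi-likelihood test, adjusted p = 0.0728). It did pass without WT control mouse 2 (0.0384) or KO-labelled control mouse 1 (0.0489), with DESeq2 (1.96e-06) and with no filter on low counts (0.00546). After IMQ it was lower in KO-labelled mice by -0.67 (SE 0.17, adjusted p = 0.0456, same edgeR test). This was kept in 1 of 6 fits with a mouse left out and lost without WT IMQ mouse 1 or 3 or any 1 of the KO-labelled IMQ mice, with adjusted p between 0.0711 and 0.191.

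**Figure D2:**
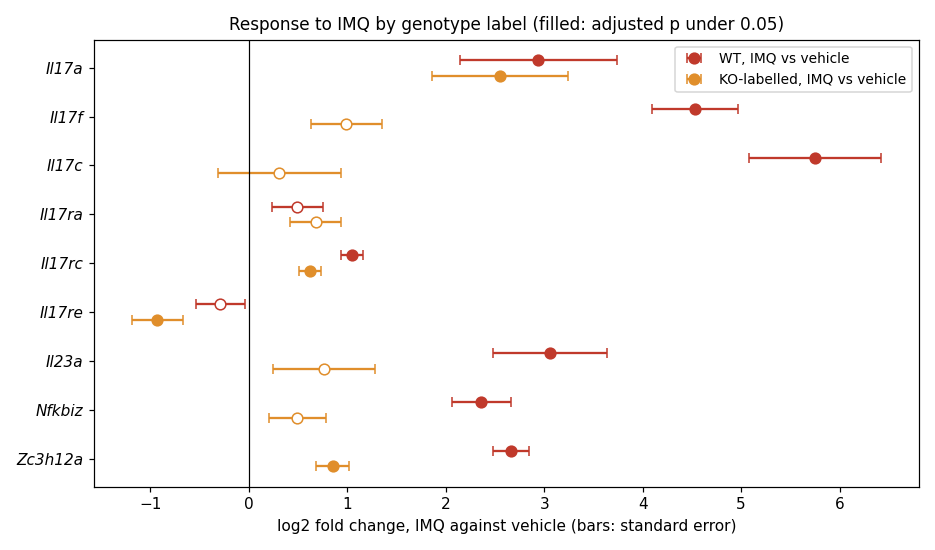
Log2 fold change of IMQ against vehicle for the 9 tested axis genes, in WT mice (red) and KO-labelled mice (orange), with standard errors as bars (n = 3 mice per group) and filled points for edgeR calls at an adjusted p under 0.05. *Il17c* passed the filter only through the WT IMQ mice and *Il17a* only through IMQ mice, and their filled points carry no weight. *Il17a* lies at 2.94 and 2.55 under the 2 labels, whereas *Il17f* lies at 4.53 and 0.99 and *Zc3h12a* at 2.66 and 0.85.

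By count, 7 of the 9 tested genes were higher after IMQ in WT mice (*Il17a*, *Il17f*, *Il17c*, *Il17rc*, *Il23a*, *Nfkbiz* and *Zc3h12a*) and 0 were lower. Over all 18529 tested genes, 14.2% were called higher and 14.3% lower in that comparison. In KO-labelled mice 3 of 9 were higher (*Il17a*, *Il17rc* and *Zc3h12a*) against 14.1% of all genes, and *Il17re* alone was lower against 11.2%. The counts include genes that passed the filter only through groups where they were high, *Il17c* among them, so that they are descriptions and support nothing. Median log2 fold changes were 2.66 and 0.68 for the 9 genes in WT and KO-labelled mice, beside -0.02 and -0.05 for all tested genes.

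**Figure D3:**
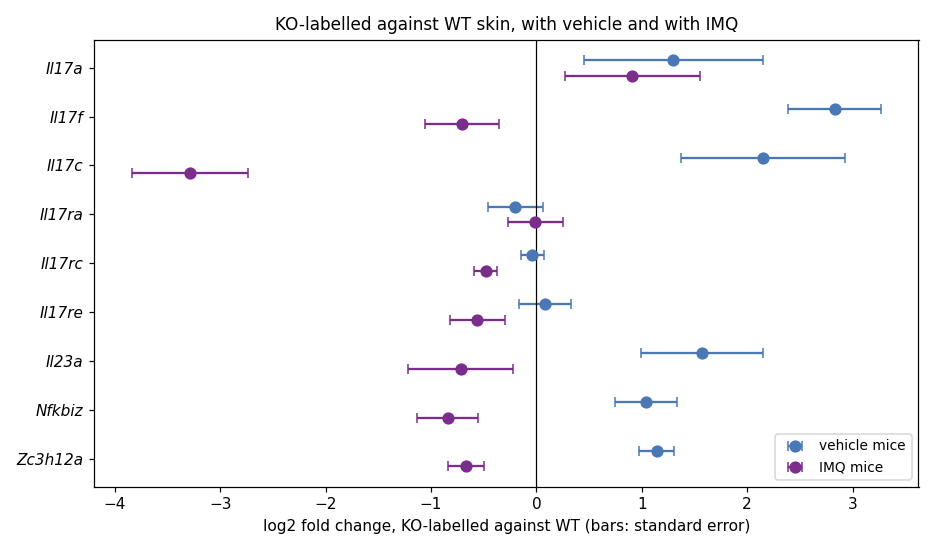
Log2 fold change of KO-labelled against WT skin for the 9 tested axis genes, among vehicle-treated mice (blue) and among IMQ-treated mice (purple), with standard errors as bars (n = 3 mice per group). *Il17f*, *Il17c*, *Il23a*, *Nfkbiz* and *Zc3h12a* lie above 0 among vehicle-treated mice and below 0 among IMQ-treated mice, and *Il17c* is shown without a test for the latter.

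Between the IMQ groups, with *Il17c* set aside, 2 of the 8 tested genes were lower in KO-labelled mice (*Il17rc* and *Zc3h12a*) and 0 were higher, where 2.60% of all genes were called lower and 2.19% higher. Groups that did not overlap, with the KO-labelled mice lower, were seen for *Il17f*, *Il17rc*, *Il17re*, *Nfkbiz* and *Zc3h12a*, and for 17.3% of all tested genes. Among the controls edgeR's quasi-likelihood test called 0 of the 9 genes, and DESeq2 called 2 of them. Unadjusted p values were under 0.05 for *Il17f*, *Il17c*, *Il23a*, *Nfkbiz* and *Zc3h12a*. Only 0.00540% of all genes were called higher there and 0.00540% lower. *Il17f*, *Il17c*, *Nfkbiz* and *Zc3h12a* were higher in every KO-labelled control than in every WT control, as were 4.19% of all tested genes.

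The difference of the responses was called lower in KO-labelled mice for 3 of the 8 genes, *Il17f*, *Nfkbiz* and *Zc3h12a*, and higher for 0, where 0.783% of all genes were called lower and 1.37% higher. For *Il17f*, *Nfkbiz* and *Zc3h12a* in turn, KO-labelled minus WT was 2.83, 1.04 and 1.14 among controls and -0.71, -0.84 and -0.67 among IMQ mice on the log2 scale. *Il17a* differed from them, with values of 1.30 (SE 0.85) among controls and 0.91 (SE 0.64) among IMQ mice, and a difference of responses of -0.39 (SE 0.97, adjusted p = 0.840, edgeR's quasi-likelihood test).

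Other genes of the pathway were read from a list of 34, of which 32 were tested. In WT mice 9 rose and 3 fell after IMQ, which is 28.1% and 9.38% of the list beside 14.2% and 14.3% of all tested genes, with a median log2 fold change of 0.31. *Il22*, the keratinocyte-directed cytokine of the same T cells, had no read in the 3 WT controls and 16, 14 and 14 in the WT IMQ mice, at least 18.0-fold higher against a floor of 3 counts over the control group. *Il22* passed the filter only through the WT IMQ mice, so that its rise was fixed in advance. The count of rises includes it and is a description that supports nothing. *Arid5a*, which stabilises inflammatory mRNAs, rose by 1.36 (SE 0.22, adjusted p = 0.000956) and *Traf6*, the ubiquitin ligase of the receptor complex, by 1.15 (SE 0.17, adjusted p = 0.000469, edgeR's quasi-likelihood test). *Il12rb2*, a chain of the IL-12 receptor, fell with a log2 fold change of -2.94 (adjusted p = 0.00392), *Il17d*, another cytokine of the family, with -2.09 (adjusted p = 0.00659), and *Traf5*, an adaptor of the IL-17 receptor, with -1.36 (adjusted p = 0.000808, same edgeR test).

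In KO-labelled mice 9 of the 32 rose (28.1%) and 1 fell (3.12%), beside 14.1% and 11.2% of all tested genes, with a median of 0.28. The largest rises were those of *Il17b*, a cytokine of the family, at 3.29 (SE 1.07), and of the C/EBP factors *Cebpd* at 2.59 (SE 0.49, adjusted p = 0.00346) and *Cebpb* at 1.39 (SE 0.24, adjusted p = 0.00196, edgeR's quasi-likelihood test). *Il17b* had 0, 1 and 2 counts in the controls and 1, 4 and 19 after IMQ, and 1 mouse held most of its reads. It passed the filter only through IMQ mice, so that a rise was built in, and its value is given with no test. The count of rises includes *Il17b* and is a description that supports nothing. *Il12rb2* fell with a value of -4.27 (SE 0.64, adjusted p = 0.00101, same edgeR test). *Il22* had 8, 0 and 0 counts in the KO-labelled IMQ mice.

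No pathway gene was called between the IMQ groups or between the control groups, and the list medians were -0.22 and 0.05. Over all tested genes, 2.60% were called lower and 2.19% higher between the IMQ groups, and 0.00540% each way between the controls. *Il17d*, alone of the list, had a higher response in KO-labelled mice, with a difference of responses of 2.97 (SE 0.65, adjusted p = 0.0431, edgeR's quasi-likelihood test). Over all tested genes 1.37% were called higher there and 0.783% lower. No pathway gene was called there without WT control mouse 1 or 2, WT IMQ mouse 1 or 3, KO-labelled control mouse 2 or 3 or any 1 of the KO-labelled IMQ mice. It had 54, 46 and 46 counts in WT controls, 4, 7 and 18 in WT IMQ mice, 27, 16 and 18 in KO-labelled controls and 16, 23 and 40 in KO-labelled IMQ mice. *Il25* and *Il21*, further cytokines of this circle, failed the filter with at most 7 and 3 counts in a library.

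A second list held 24 genes known to be raised by IL-17 in epithelial cells, *Lcn2* among them, and 22 were tested. In WT mice 20 of them rose and 0 fell, beside 14.2% and 14.3% of all tested genes, with a median log2 fold change of 4.86. In KO-labelled mice 17 rose and 1 fell, beside 14.1% and 11.2% of all tested genes, with a median of 3.09. *Il24*, *Il19*, *Cxcl3*, *Cxcl5*, *Defb3* and *Defb4* had at most 7 counts in any control. They passed the filter only through IMQ mice, so that a rise was fixed in advance. The list was also chosen with earlier results of these data known, and these counts are descriptions that support nothing. With at least 10 counts required in every library, 10 targets were tested and 9 rose under either label. The cytokines *Il24* and *Csf3* had no read in WT controls. They had 733 and 239 reads in WT IMQ mice, at least 299-fold and 97.6-fold higher against a floor of 3 counts over the group. *S100a9*, a subunit of calprotectin, rose by 9.40 (SE 0.65) in WT and by 7.68 (SE 0.61) in KO-labelled mice. *S100a8*, its partner, rose by 8.03 (SE 0.77) in KO-labelled mice. Their adjusted p lay between 3.24e-06 and 6.02e-05 (edgeR quasi-likelihood test).

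Between the IMQ groups 3 of the 22 tested targets were lower in KO-labelled mice and 0 were higher, with a median of -0.53. Over all tested genes 2.60% were called lower there and 2.19% higher. The IL-20 family cytokine *Il19* had 774, 1068 and 906 counts in WT IMQ mice and 164, 202 and 276 in KO-labelled IMQ mice, lower by -2.08 (SE 0.31, edgeR quasi-likelihood test, adjusted p = 0.0219). Its relative *Il24* was lower by -2.36 (SE 0.44, adjusted p = 0.0276, same edgeR test). *Ccl20*, the chemokine for the CCR6-bearing cells that make IL-17, had 6.24, 8.54 and 4.60 CPM in WT IMQ mice and 1.53, 2.34 and 0.360 CPM in KO-labelled IMQ mice. It was lower by -2.19 between the IMQ groups (SE 0.50, adjusted p = 0.0393, same edgeR test). Of these 3 calls 0 were left without WT IMQ mouse 1 or 3 or any 1 of the KO-labelled IMQ mice.

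*Ccl20* fell with IMQ in KO-labelled mice by -3.09 (SE 0.51, adjusted p = 0.00170, edgeR's quasi-likelihood test), from 11.4, 8.74 and 16.1 CPM in the controls. Its difference of responses was -3.23 (SE 0.68, adjusted p = 0.0423) and that of *Il36a*, an IL-1 family cytokine of keratinocytes, was -1.84 (SE 0.35, adjusted p = 0.0311, same edgeR test). These were the 2 target genes called there, of 22 tested, beside 0.783% of all tested genes called lower and 1.37% higher. *Il36a* had 7.39, 5.07 and 8.99 CPM in WT controls and 18.3, 18.7 and 16.9 CPM in KO-labelled controls. Both calls depended on which mice were in the fit, and 0 targets were called without WT control mouse 1, WT IMQ mouse 1 or 3, KO-labelled control mouse 2 or 3, or KO-labelled IMQ mouse 1 or 2. *Csf2* and *Il20* failed the filter, with 55 *Il20* reads in WT IMQ mice, 12 in KO-labelled IMQ mice and 0 in either control group.

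**Figure D4:**
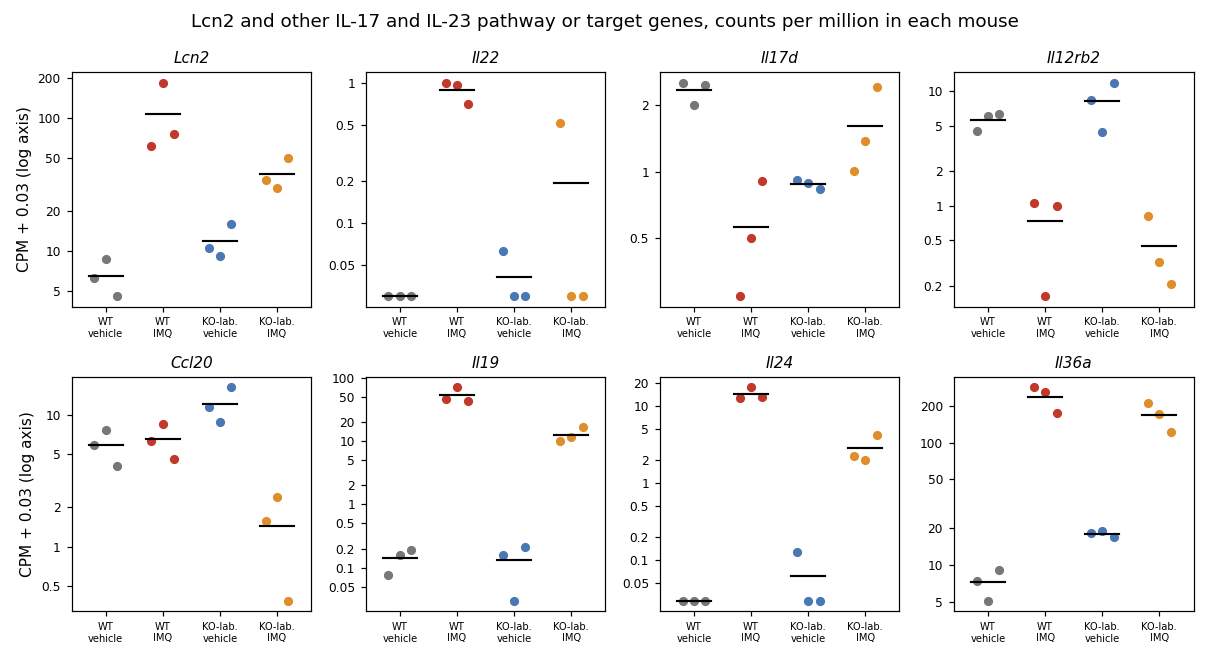
CPM of *Lcn2*, of 3 pathway genes (*Il22*, *Il17d*, *Il12rb2*) and of 4 target genes (*Ccl20*, *Il19*, *Il24*, *Il36a*) in each mouse, plotted with 0.03 CPM added on log axes whose range differs between panels. Points are single mice (n = 3 per group) and lines are group means. *Ccl20* is lowest in the KO-labelled IMQ mice (0.360 to 2.34 CPM), and *Il19* and *Il24* are highest in the WT IMQ mice.

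Marker sums of the cells that make or answer these cytokines differed between the IMQ groups, with overlap for both sets of T cell markers. The 12 keratinocyte markers summed to between 34615 and 46330 CPM in WT IMQ mice and to between 20405 and 31586 CPM in KO-labelled IMQ mice. In the latter 3 of the 12 were called lower, beside 2.60% of all tested genes. The 8 fibroblast markers summed to between 10393 and 11051 CPM and to between 20351 and 21114 CPM. Of these, 3 of 8 were called higher in KO-labelled IMQ mice, beside 2.19% of all tested genes. The 13 general T cell markers summed to between 32.5 and 65.7 CPM in WT IMQ mice and to between 60.9 and 91.7 CPM in KO-labelled IMQ mice. By sign 12 of them were higher in the latter, and 0 were called. *Cd4* alone had a mean of 15.9 CPM in WT IMQ mice and 29.0 CPM in KO-labelled IMQ mice. The 11 γδ T cell marker names, which cover 8 genes so that some were summed more than once, gave between 29.4 and 55.4 CPM and between 53.8 and 63.9 CPM, with 0 called. *Sox13* held a large part of these sums, with means of 16.8 and 21.1 CPM in turn. The 9 macrophage and monocyte markers summed to between 1401 and 2182 CPM and to between 2248 and 3067 CPM, with 1 called higher. Neutrophil markers, 9 in all, summed to between 145 and 181 CPM and to between 196 and 503 CPM. The 503 CPM came from KO-labelled IMQ mouse 3, beside 248 and 196 CPM in mice 1 and 2. By sign all 8 tested neutrophil markers were higher in KO-labelled IMQ mice, and 1 was called, beside 2.19% of all tested genes. The part of these cell proportions in the levels of the axis genes was not tested.

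Over the 12 mice, the genes most like *Nfkbiz* in log2 CPM were *Nod2* (Pearson's r 0.972), *Gch1* (0.970) and *Zc3h12a* (0.967). Those most like *Il17c* were *Ggnbp2* (0.967), *Riok3* (0.963) and *Rin1* (0.960). *Il23a* was most like *Clock* (0.961), *Stx11* (0.946) and *Csrnp1* (0.943), and *Il17a* most like *Tpd52-ps* (0.939), *Lnx2* (0.932) and *Pold4* (0.925). Within the axis, *Il17f* followed *Zc3h12a* (0.959) and *Nfkbiz* (0.916) more closely than *Il17a* (0.742), and *Il17a* and *Il17c* had 0.342. These values describe 12 mice in 4 groups that share the treatment, and were not tested.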

How the data were processed

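Bulk RNA-seq of skin was analysed from 12 mice, 3 in each of 4 groups defined by the labels. The deposited table holds raw counts per Ensembl gene, made by the authors. The submitters' processing notes name HISAT and mm8, and the counter, annotation and strand setting are not given in the sources used here. Names were given to 91.5% of 56923 genes, and the remaining genes held 0.567% of counts. Gene positions are those of the GRCm38 annotation for the same identifiers and were not used for counting. Columns left unmapped numbered 0.

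Genes were filtered with filterByExpr by group (minimum count 10, minimum total 15) and fitted with edgeR 4.0.16 (R 4.3.3), using TMM scaling, 4 group means over all 12 libraries and robust quasi-likelihood tests with Benjamini-Hochberg adjustment over 18529 genes. A call means an adjusted p under 0.05. CPM are TMM-scaled. DESeq2 1.42.0 was an alternative, beside RLE scaling, other filters, a fold threshold, fits on the compared libraries only, a replicate block and each mouse left out in turn. The procedure was tested on simulated data. The common biological coefficient of variation was 0.253. Library totals lay between 16448226 and 28592110 counts. The p-values judge differences against an estimate of the spread between mice that the 4 groups share.

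The axis genes and the lists were chosen with earlier results of these data known. All 10 axis genes are named. From the pathway and target lists, the 3 largest rises and falls among the genes called in each comparison are named, with every list gene outside the filter. Likeness was Pearson's r of log2(CPM + 0.5) over the 12 mice among tested genes with a mean of at least 1 CPM. Marker sums add the CPM of fixed lists. Promoters were read from RefSeq (GRCm38.p6). Pairs of libraries were compared for duplicates, and none were found.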

Additional observations from a re-analysis of the deposited data

Results flagged for a closer look

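In 3 axis genes the response to IMQ differed between the genotype labels by a test of the difference itself. The KO-labelled response minus the WT response was -3.54 on the log2 scale for *Il17f* (SE 0.57, adjusted p = 0.0223), -1.88 for *Nfkbiz* (SE 0.41, adjusted p = 0.0432) and -1.81 for *Zc3h12a* (SE 0.24, adjusted p = 0.0170, all from edgeR's quasi-likelihood test). *Il17f* passed the filter on low counts in none of the WT controls, which held 4, 4 and 2 counts, so that it was tested only because it was high in other groups, and its test carries less weight than those of *Nfkbiz* and *Zc3h12a*. All 3 responses were positive under both labels and smaller in KO-labelled mice. The *Lcn2* counts of the KO-labelled controls go against their label, and the KO-labelled IMQ mice still held *Lcn2* reads, so that these are differences between labelled groups. Their cause was not tested.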

How the results depend on the processing

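Depth limited the low genes: *Il17c*, *Il17a* and *Il17f* in the WT controls were at 0 to 4 counts per library, near the floor of 3 counts. Each group held 3 mice. The counts of calls moved as follows. Requiring at least 10 counts in every library, which removes low genes from the test, left 3 axis genes and 9 targets called for IMQ in WT mice, 9 targets in KO-labelled mice and 1 target between the IMQ groups. A fold threshold of 2 left 7 pathway genes in WT mice, 1 axis gene and 4 pathway genes in KO-labelled mice and 0 axis genes between the IMQ groups. Without a filter, 1 axis gene was called between the IMQ groups and 1 between the controls. DESeq2 called 5 pathway genes and 6 targets between the IMQ groups, 2 axis genes and 1 target between the controls, and 4 pathway genes and 9 targets for the difference of responses. With the compared libraries only, 1 pathway gene and 8 targets were called between the IMQ groups.

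Leaving out 1 mouse at a time gave 6 to 7 axis genes, 10 to 13 pathway genes and 19 to 20 targets for IMQ in WT mice, and 2 to 4, 5 to 8 and 17 to 19 in KO-labelled mice. Between the IMQ groups it gave 0 to 2 axis genes, 0 to 2 pathway genes and 0 to 3 targets. Between the controls it gave 0 to 2 axis genes, 0 pathway genes and 0 to 1 targets, and for the difference of responses 0 to 3, 0 to 5 and 0 to 5. For these fits the cause of the changes was not tested, beyond the smaller number of mice.

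Same-numbered mice did not deviate together (18 pairs, 3 with r over 0.1, range -0.590 to 0.238), so the replicate numbers were not taken as pairs. With the replicate block, 0 axis genes and 1 target were called between the IMQ groups, and 0 axis genes, 0 pathway genes and 0 targets for the difference of responses. The adjusted p of *Il17f*, *Nfkbiz* and *Zc3h12a* for that difference was then 0.0541, 0.0896 and 0.0528.

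Signs changed only for values near 0. *Il17ra* between the IMQ groups was 0.00 with RLE scaling, DESeq2 and the replicate block, 0.01 without a filter or with the compared libraries only, and between -0.18 and 0.09 with a mouse left out. With a mouse left out, the control difference lay between -0.40 and 0.27 for *Il17ra*, between -0.14 and 0.07 for *Il17rc* and between -0.02 and 0.23 for *Il17re*. The difference of responses then lay between -1.41 and 0.18 for *Il17a* and between -0.25 and 0.40 for *Il17ra*.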
